A study of Mus musculus with 96 samples.

Results

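The proteins of the cytosolic ribosome are encoded by a family of nuclear genes with the prefixes Rpl and Rplp for the large subunit and Rps and Rpsa for the small subunit. The members were all rows of the expression table whose symbol is Rpl or Rps followed by a number, with an optional a, x or l and an optional last digit, together with Rplp0, Rplp1, Rplp2 and Rpsa. Symbols with -ps, which mark pseudogenes, and the S6 kinases were left out. This rule found 86 of 22709 genes, 51 of the large and 35 of the small subunit, and it used no measured value.

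The hippocampus and prefrontal cortex of mice were profiled by bulk sequencing of messenger RNA. The mice carried 1 of 2 prenatal labels, maternal immune activation (MIA) or saline injection, and 1 of 2 CSF1R inhibitor labels, Plexxikon (PLX) or control, in females and males. CSF1R is the receptor that microglia need to survive, and the series design names the inhibitor as PLX5622, injected to target and renew microglia. The 16 groups were MIA PLX, MIA control, saline PLX and saline control, each in females and males and in each region, with 6 libraries per group except 7 for MIA control females and 5 for MIA control males in each region. The labels name no immune activating agent, inhibitor dose or time, age, strain or litter, and nothing says that libraries of a group came from separate litters. The p-values measure the spread between the libraries of a group. Those for MIA and those for PLX may be too small if animals of a group shared a litter.

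A ribosome holds a single copy of most of its proteins, so cells make these proteins in matched amounts. Their messenger RNAs begin with a C followed by a run of pyrimidines, the 5′ terminal oligopyrimidine tract, through which the mTORC1 pathway controls their translation together. The genes also gave rise to many processed pseudogenes, which are intronless copies inserted elsewhere in the genome. In brain, ribosomal protein messenger RNAs are found in cell bodies and also in neuronal and glial processes.

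A tract of this kind was searched for around annotated starts. RefSeq promoters on GRCm38.p6 were available for 62 of the 86 members, with 74 starts. The motif searched was a C followed by at least 5 bases that are each C or T, on the strand of the gene, within 25 bases on either side of the start. It was present at 45 of the 74 starts (60.8%), against 11484 of all 32851 starts in the same table (35.0%). A motif that covers the annotated first base was found at 20 of the 74 starts (27.0%) and at 1917 of all starts (5.84%). The sequences below run 5′ to 3′ from 25 bases before to 25 bases after the start, with the match whose first base lies nearest the start in capitals, while other matches stay in lower case. Among starts with a match, Rpl35, Rps18 and Rpl14 are shown because they were lower in PLX libraries in both regions in the comparison below, Rps15a, Rpl5 and Rps6 because they did not pass that test in either region, and Rpl4 as the member with the highest signal. Rpsa and Rpl10 are starts with no match, of a member that was lower in PLX libraries in both regions and of one that did not pass in either.
Rpl35, chr2:39005107-39005156, minus strand: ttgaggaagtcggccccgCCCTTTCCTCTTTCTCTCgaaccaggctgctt
Rps18, chr17:33955641-33955690, minus strand: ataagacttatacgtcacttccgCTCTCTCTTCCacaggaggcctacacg
Rpl14, chr9:120571492-120571541, plus strand: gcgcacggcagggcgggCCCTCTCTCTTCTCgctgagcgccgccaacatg
Rps15a, chr7:118116123-118116172, minus strand: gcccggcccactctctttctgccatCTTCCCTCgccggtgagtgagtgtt
Rpl5, chr5:107900503-107900552, plus strand: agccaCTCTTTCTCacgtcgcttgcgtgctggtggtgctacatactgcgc
Rps6, chr4:86857343-86857392, minus strand: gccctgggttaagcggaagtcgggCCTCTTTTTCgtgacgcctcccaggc
Rpl4, chr9:64173362-64173411, plus strand: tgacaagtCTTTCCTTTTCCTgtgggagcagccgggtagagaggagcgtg
Rpsa, chr9:120127741-120127790, plus strand: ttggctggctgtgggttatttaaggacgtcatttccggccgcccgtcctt
Rpl10, chrX:74270791-74270840, plus strand: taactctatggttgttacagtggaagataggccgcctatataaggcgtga
The longest run in capitals is 18 bases, in Rpl35. The runs of Rpl5 and Rpl4 end before the annotated start, so at these starts they are not the beginning of the messenger RNA as annotated. Starts with and without a match occur both among members that passed the PLX test and among members that did not.

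The deposited table gives a signal per gene, which is a read count divided by a factor for each library. The counts recovered from it summed to 22234569 to 26689351 reads per library in hippocampus and 22752437 to 25928320 in prefrontal cortex. A set of libraries stood apart from the rest on the first principal component computed without the members and other genes of translation and respiration, 15 of 48 in hippocampus and 14 of 48 in prefrontal cortex. Of these, 14 carried the same label in both regions. The other, hippocampal MIA control female 03, lay between, at 10.8 on the component. The next library of the set was at 26.3 and the highest of the rest at -2.75. In prefrontal cortex the same label had 2.92 and did not stand apart. In hippocampus 2 of 24 PLX libraries and 13 of 24 control libraries stood apart, and in prefrontal cortex 2 of 24 PLX and 12 of 24 control libraries did. MIA and saline were more even, with 7 and 8 libraries in hippocampus and 6 and 8 in prefrontal cortex. The PLX counts over the members, and the values of most members described, are given below with and without a term in the model that marks these libraries. Markers of neurons (13 of 13 in the table), astrocytes (10 of 10), oligodendrocytes (10 of 10) and microglia (16 of 16) were present in both regions.

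Ribosomal protein genes took a small part of the signal and differed widely in level among themselves. Together they made up 0.319 ± 0.0516% of the signal of a library in hippocampus and 0.293 ± 0.0558% in prefrontal cortex (SD, n = 48 each). Rpl4, a large subunit protein that lines the exit tunnel, averaged 8329 over the 96 libraries and held 11.2% of all member signal. Rps3, a small subunit protein at the messenger RNA entry site, averaged 5252, and Rpl8 averaged 4883. The first 10 members held 51.1% of the member signal. At the other end Rpl38, a large subunit protein known for its role in the translation of Hox messenger RNAs, averaged 20.8, Rpl24 averaged 20.6 and Rpl3l, the striated muscle counterpart of Rpl3, averaged 7.77. Per kilobase of annotated exon the order changed at the top. There Rplp1, a protein of the acidic stalk that recruits elongation factors, came ahead of Rps15 and Rpl4.

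**Figure D1:**
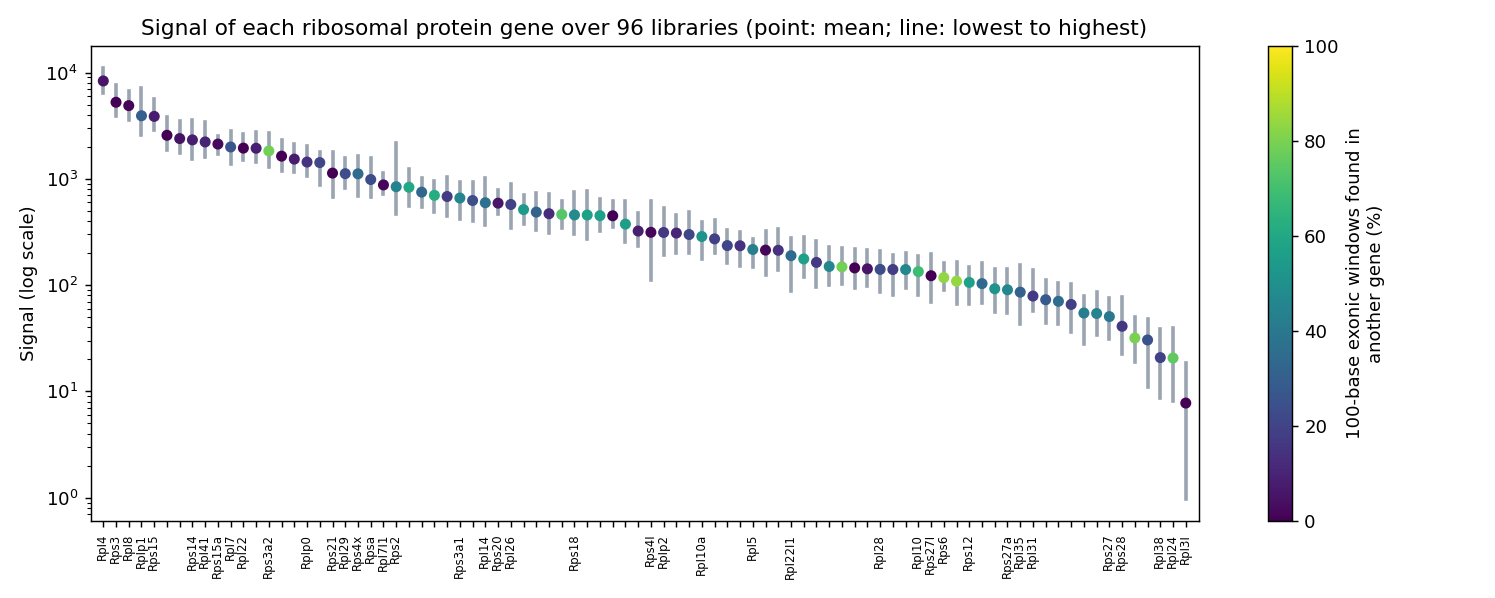
Signal of each of the 86 ribosomal protein genes on a log scale, ordered by mean. Some of the members are labelled. Points are means over 96 libraries, lines run from the lowest to the highest library, and colour gives the percent of 100-base exonic windows that also occur in another annotated gene. Rpl4 averages 8329 and Rpl3l 7.77, and the lines of Rps2, Rps4l and Rpl3l are longer than those of their neighbours.

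Near-identical copies can share reads, and no source used here gives the counter, so the level of a member with many copies is uncertain. In the GENCODE M21 annotation of GRCm38, 84 of 86 members had at least 1 stretch of 50 exonic bases that also occurs in an annotated pseudogene. Over members, a median of 23.1% of 100-base windows occurred in another gene. No window was shared for 8 members, among them Rps3, Rpl22 and Rpl32. The 24 members with at most 10% of windows shared had a median signal of 1584, against 231.5 for the 18 members with over 50% shared. Rps6, the small subunit protein that S6 kinases phosphorylate, had 83.6% of its windows shared and averaged 117.6 in signal. Across the 86 members, the share of windows and the log2 mean signal had a Spearman rho of -0.35 and a Pearson r of -0.33, and with signal per kilobase rho was -0.30. These are descriptions across genes that share libraries. The annotation calls 5 members pseudogenes, namely Rpl32l, Rpl6l, Rps3a2, Rps3a3 and Rps4l. Rps3a2 averaged 1830 and its parent Rps3a1 659.7, with 78.6% and 45.3% of windows shared.

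PLX against control was tested to ask how the inhibitor bears on these genes. Without regard to the libraries that stand apart, many ribosomal protein genes were lower in PLX libraries in both regions. Averaged over prenatal label and sex, 59 of 86 members (68.6%) fell in hippocampus and 65 of 86 (75.6%) in prefrontal cortex, and none rose (limma with Benjamini-Hochberg adjustment over all tested genes, adjusted p under 0.05). Over all tested genes 19.2% were called lower in hippocampus and 18.1% in prefrontal cortex, and 20.8% and 19.7% were called higher. The median log2 difference of the members was -0.20 in hippocampus and -0.25 in prefrontal cortex, against medians of -0.0017 and -0.00024 over all genes. With the term, 0 members were called in either region, and the medians were -0.05 and -0.07. Most of the marked libraries are control libraries, so the term and the inhibitor label overlap and cannot be told apart. By limma with that term, 1 member was higher and 10 lower in hippocampus at an unadjusted p under 0.05. In prefrontal cortex 0 were higher and 29 lower at that level. Over all tested genes 0.0552% and 0.101% were called lower with the term at the adjusted threshold. Here and below, no share of all genes is given at an unadjusted p, so counts at that level have no background beside them. Without regard to the term, edgeR's quasi-likelihood test called 58 and 65 members and DESeq2 60 and 66. In bulk tissue, fewer cells of a type and less RNA per cell cannot be told apart.

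The summed share shows the same division between libraries. In hippocampus it was 0.254 to 0.386% in PLX libraries with a median of 0.284%, and 0.277 to 0.429% in control libraries with a median of 0.350%. In prefrontal cortex it was 0.231 to 0.388% with a median of 0.255% in PLX libraries, and 0.249 to 0.397% with a median of 0.335% in control libraries. The ranges overlapped in both regions. Without the libraries that stand apart, the hippocampal share was 0.284 ± 0.0154% in 22 PLX libraries and 0.297 ± 0.0166% in 11 control libraries. The prefrontal share was then 0.253 ± 0.0150% in 22 PLX libraries and 0.273 ± 0.0268% in 12 control libraries (SD).

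**Figure D2:**
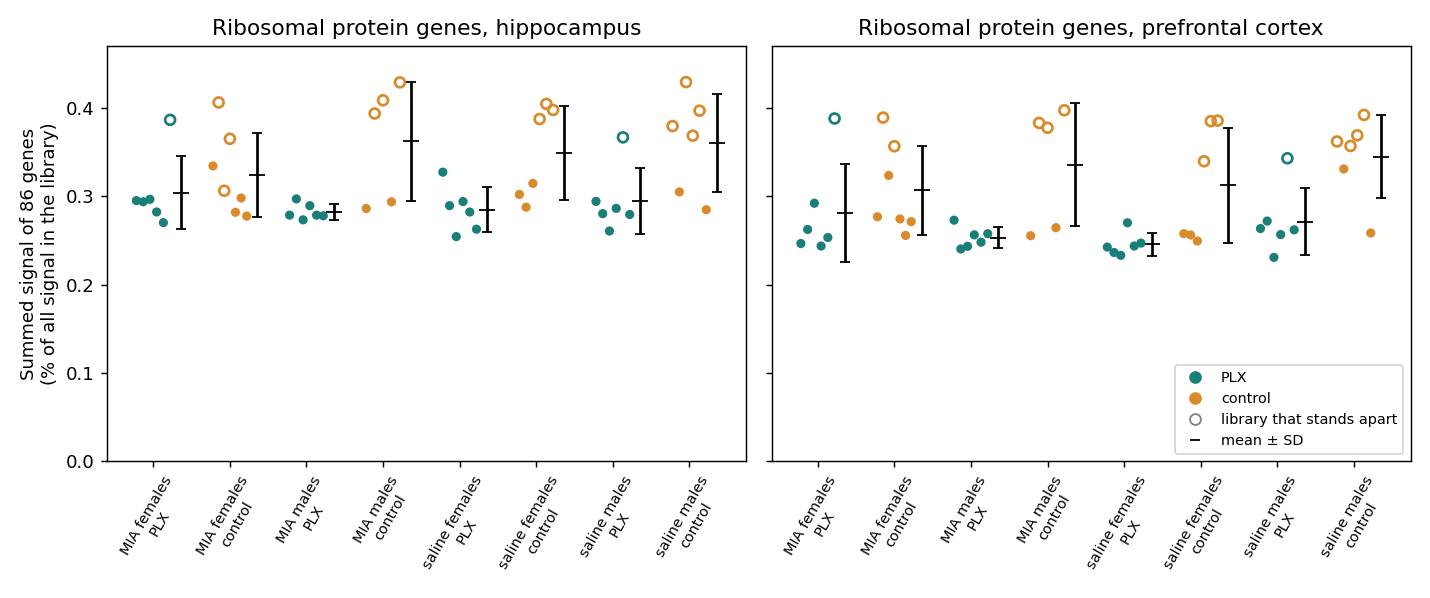
Summed signal of the 86 ribosomal protein genes as a percent of all signal, for each of 96 libraries, with hippocampus on the left and prefrontal cortex on the right. Open circles are libraries that stand apart, and bars give the mean ± SD of the group. Open circles lie between 0.306 and 0.429% in hippocampus and between 0.339 and 0.397% in prefrontal cortex, and most of them are control libraries.

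Among large subunit members, Rpl35, which sits at the tunnel exit, had the lowest PLX value in both regions. In hippocampus its signal was 54.5 to 100.8 in PLX libraries with a median of 74.5, and 69.7 to 153.7 in control libraries with a median of 98.3. The fall was 0.40 on the log2 scale (SE 0.0855, limma adjusted p = 0.00101). In prefrontal cortex its signal was 43.0 to 109.2 with a median of 73.8 in PLX libraries, and 60.4 to 143.7 with a median of 97.7 in control libraries. The log2 difference there was -0.44 (SE 0.102, limma adjusted p = 0.00188). Most PLX values lie in the lower part of the control range, so the groups overlap. With the term the values were -0.22 and -0.18, neither called. Rpl41, the shortest ribosomal protein, had log2 differences of -0.32 and -0.35 without the term and -0.07 and -0.11 with it.

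Rpl26, a large subunit protein that in human cells also binds p53 messenger RNA, had the smallest p of the members in prefrontal cortex. It ran from 348.1 to 616.2 in PLX libraries there with a median of 500.5, and from 407.3 to 892.8 in control libraries with a median of 620.6. The fall was 0.35 on the log2 scale (SE 0.0671, limma adjusted p = 0.00103), and with the term the log2 value was -0.20 (adjusted p = 0.145). Rpl4 had a log2 difference of -0.19 in hippocampus and -0.22 in prefrontal cortex, both called, and -0.05 and -0.08 with the term. Of the stalk proteins, Rplp0 and Rplp1 were called in both regions, with values of -0.07 and -0.10 for Rplp0 and of -0.05 and -0.12 for Rplp1 under the term. Rplp2 was called in prefrontal cortex (-0.34, adjusted p = 0.00206) and missed the threshold in hippocampus (-0.17, adjusted p = 0.0501), and it had -0.16 and -0.03 under the term in the same order.

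Among small subunit members the smallest hippocampal p belonged to Rps3a2. The annotation calls it a processed pseudogene, and 78.6% of its 100-base windows occur in another gene. It ran from 1290 to 2195 in PLX libraries with a median of 1732, and from 1662 to 2712 in control libraries with a median of 2109. The fall was 0.28 on the log2 scale (SE 0.0527, limma adjusted p = 0.000555). With the term it was -0.11 (adjusted p = 0.137). Rps14, a protein of the small subunit platform, fell by 0.34 in hippocampus and by 0.36 in prefrontal cortex, and Rpsa, also known as the laminin receptor, fell by 0.31 and by 0.35. All 4 values passed the test without the term, and none did with it, where Rps14 had -0.08 and -0.13 and Rpsa -0.11 and -0.12. Rps21 in prefrontal cortex had a log2 difference of -0.39 without the term (SE 0.0915, limma adjusted p = 0.00208) and -0.18 with it.

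The counts and medians of the subunits were close, and no test of their difference was made. In hippocampus 35 of 51 large and 24 of 35 small subunit members were called lower, with medians of -0.19 and -0.22. In prefrontal cortex these were 38 and 27, with medians of -0.23 and -0.27. With the term 0 of either subunit were called, and the medians of the large and the small subunit were -0.05 and -0.06 in hippocampus and -0.07 and -0.08 in prefrontal cortex. The calls of the regions shared 54 members, which is 91.5% of the hippocampal and 83.1% of the prefrontal calls. Over all tested genes 2692 were lower in both regions, which is 70.3% of the hippocampal and 75.0% of the prefrontal calls in that direction. Of the labels that stood apart, 14 were common to both regions. The regional difference of the PLX effect was called for 0 members by limma, 0 at an unadjusted p under 0.05, and 0 by edgeR and DESeq2.

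The 16 members called in neither region included Rps6, Rpl5, Rps15a, Rpl10, Rpl10a, Rps2, Rps12, Rps28, Rps4l and Rpl3l. Of members with at most 10% of windows shared, 21 of 24 were called lower in each region. With over 50% shared, 9 of 18 were called in hippocampus and 10 of 18 in prefrontal cortex, and in between 29 and 34 of 44. Rps6, Rpl10, Rpl10a and Rps12 have over 50% shared, and Rps15a, Rps4l and Rpl3l at most 10%. Rpl5, Rps2 and Rps28 lie in between. The part of shared reads was not tested. Rpl5, which carries the 5S ribosomal RNA with Rpl11 and binds Mdm2, ran from 185.9 to 272.5 in hippocampal PLX libraries with a median of 237.8, and from 192.6 to 271.4 in control libraries with a median of 237.1. Its log2 difference was 0.0036 (SE 0.0401). Rps15a, a small subunit protein, had a log2 difference of -0.03 (SE 0.0320) in hippocampus and -0.05 (SE 0.0274) in prefrontal cortex. Both genes had nearly the same range in both groups, and their standard errors are among the smallest of the family. Rps6 had a log2 difference of -0.10 (SE 0.0555) in hippocampus and -0.02 (SE 0.0541) in prefrontal cortex. Under the term Rpl5 had 0.0068 and 0.00081, Rps15a -0.0087 and -0.05, and Rps6 -0.04 and 0.07 in hippocampus and prefrontal cortex. Rps27a, which is made as a fusion with ubiquitin, was called in prefrontal cortex only (-0.24), and its hippocampal value was -0.11 (adjusted p = 0.175). Under the term these were -0.08 and 0.02.

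**Figure D3:**
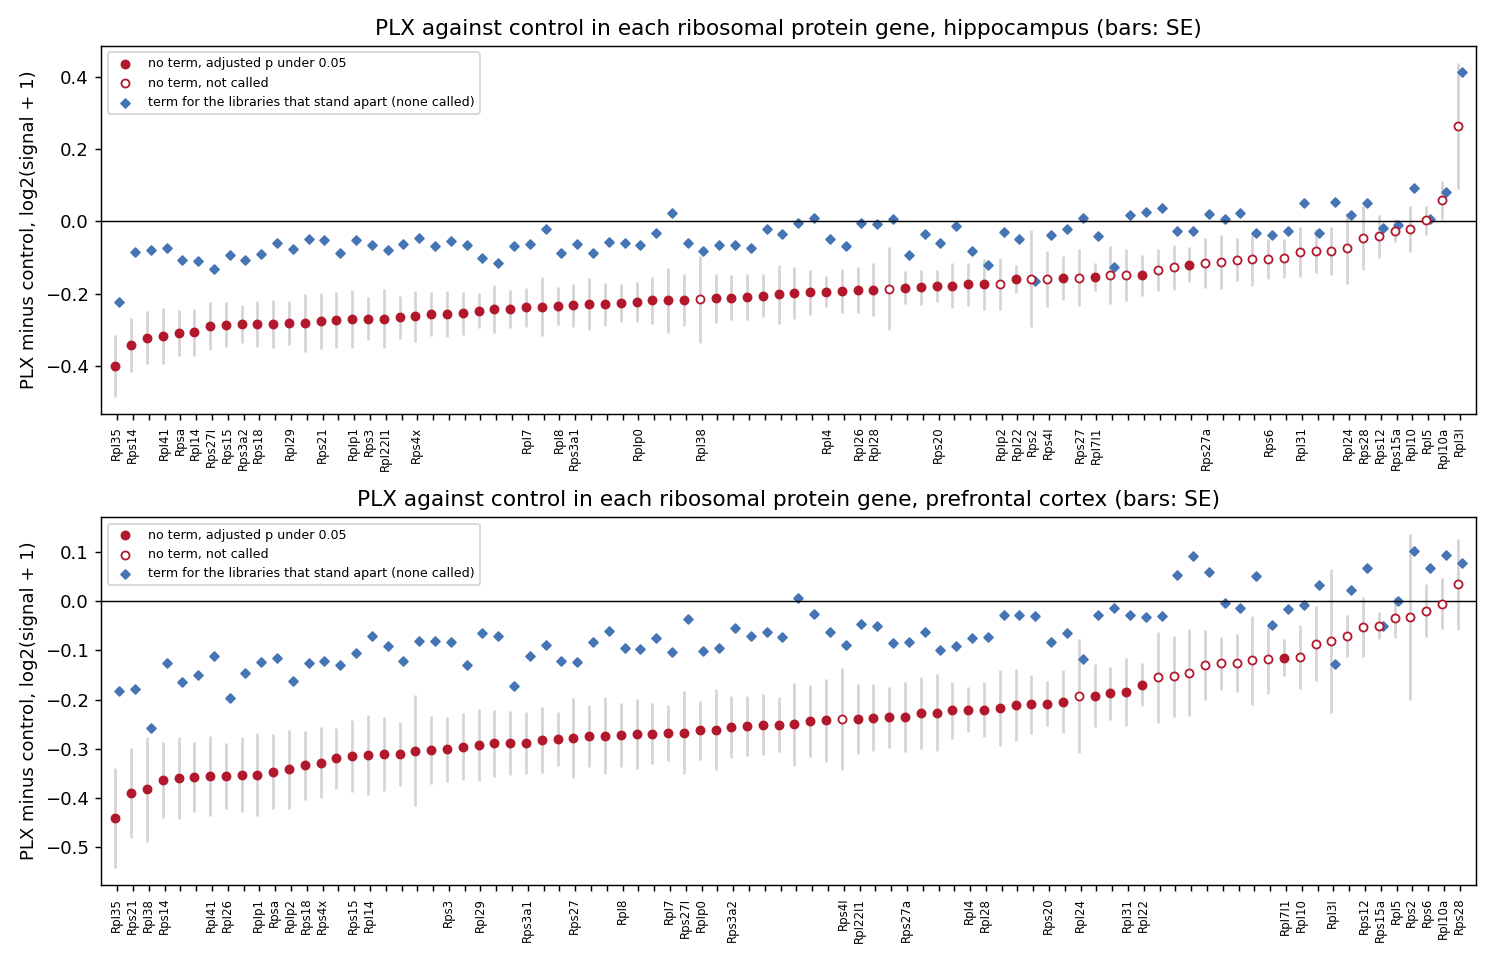
PLX minus control in log2(signal + 1) for each ribosomal protein gene, ordered by value, with hippocampus above prefrontal cortex. Some of the members are labelled. Red points give the fit without the term (filled where called, bars SE) and blue diamonds the fit with a term marking libraries that stand apart. Red points reach -0.40 and -0.44 for Rpl35, and the diamonds centre on medians of -0.05 and -0.07.

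Within single strata no member was called, although most values were below 0. In hippocampus the member median was -0.08 in MIA females, -0.28 in MIA males, -0.23 in saline females and -0.21 in saline males. In prefrontal cortex it was -0.09, -0.33, -0.27 and -0.27 in the same order. With the term the medians were 0.01, -0.08, -0.07 and -0.04 in hippocampus and -0.05, -0.09, -0.06 and -0.07 in prefrontal cortex. By limma without it, 2, 44, 33 and 32 hippocampal members and 6, 57, 44 and 43 prefrontal members were lower at an unadjusted p under 0.05 in the same order, and none was higher. Of all genes, 0.00502%, 0.00502%, 0.0301% and 0.0251% were called in hippocampus and 0.0252%, 0.0202%, 0.0252% and 0.338% in prefrontal cortex. These shares are at the adjusted threshold and are no background for the unadjusted counts. edgeR called 0 members in all 8 strata, while DESeq2 called 1 in hippocampal saline females and 13 in prefrontal saline males. Single libraries decide these counts. Without MIA control male 02 or MIA control male 05, 36 and 35 members were called in hippocampal MIA males, and 35 with either left out in prefrontal MIA males. Without saline control male 06 or saline PLX male 05, 36 and 30 were called in prefrontal saline males. MIA control males 02 and 05 did not stand apart in either region, while 3 of 5 libraries of their group did. In prefrontal cortex saline control male 06 did not, while 4 of 6 of its group did, and saline PLX male 05 was the 1 of 6 that did. Leaving out any of them makes the compared groups differ more in the part of libraries that stand apart. The share of all genes called is not given for the DESeq2 fits or for those without a library. The counts of those fits are thus not read as a result about the members.

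The member median was nearer 0 in MIA females than in the other strata, and the tests of the difference itself made no call. The sex difference of the PLX effect was called for 0 members by limma, with 1 higher in hippocampus and 3 higher in prefrontal cortex at an unadjusted p under 0.05. The MIA by PLX interaction was called for 0 members, with 2 higher and 0 lower at an unadjusted p under 0.05 in hippocampus and 2 higher and 2 lower in prefrontal cortex. edgeR and DESeq2 called 0 for each. Of all genes, 0% were called in these tests and in both tests of a regional difference.

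Several other lists of protein synthesis genes held more called lower than called higher, and others were mixed. The mitochondrial ribosomal protein genes were taken by symbol, and the other lists were written by hand. Earlier results of the data were known, so the direction of the lists is no independent evidence. Their counts, all without the term, stand beside 19.2% of all genes lower and 20.8% higher in hippocampus, and 18.1% lower and 19.7% higher in prefrontal cortex. Of 77 mitochondrial ribosomal protein genes, which are encoded in the nucleus and serve a separate ribosome, 55 fell in hippocampus and 40 in prefrontal cortex, with medians of -0.14 and -0.13. Of 21 other messenger RNAs known to carry the tract, 14 fell in each region (medians -0.11 and -0.11). Of 38 initiation and elongation factors 3 rose and 22 fell in hippocampus, and 6 rose and 18 fell in prefrontal cortex. Of 40 genes of ribosome assembly and RNA polymerase I, 5 rose and 15 fell in hippocampus and 5 rose and 10 fell in prefrontal cortex. Of 28 genes of the mTORC1 and S6 kinase pathway, 6 rose and 9 fell in hippocampus and 8 rose and 7 fell in prefrontal cortex. Of 10 snoRNA host genes 4 and 6 fell and 1 rose in each region. Rack1, a small subunit protein whose symbol lies outside the rule, had a median signal of 3137 in PLX and 3691 in control hippocampus, and 2993 in PLX and 3648 in control prefrontal cortex. With the term, none of these lists had a called gene in either region.

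Genes of respiration and cell type markers also moved. Of 72 tested nuclear genes of oxidative phosphorylation out of 87 listed, 66 fell in hippocampus and 64 in prefrontal cortex, with 0 called under the term. Of 9 nuclear-retained long noncoding RNAs tested in hippocampus 4 rose, and of 8 in prefrontal cortex 1 rose. Of 16 microglial markers 8 fell in hippocampus and 9 in prefrontal cortex, and with the term 2 fell in hippocampus while 1 rose and 6 fell in prefrontal cortex. Their summed level, as CPM of all signal in the library, was 440.9 to 565.5 CPM in PLX and 451.7 to 745.2 in control hippocampus, and 443.5 to 593.2 in PLX and 468.1 to 696.6 in control prefrontal cortex. The astrocyte list summed to 5741 to 7894 CPM in PLX and 5298 to 7787 in control hippocampus. Of 10 choroid plexus markers tested in hippocampus limma called 0, and of 7 tested in prefrontal cortex 1 rose and 1 fell. In hippocampus 3 of 13 neuronal markers rose and 4 fell, and in prefrontal cortex 3 rose and 3 fell. Of 13 endothelial and mural markers 3 and 5 fell. Of 10 oligodendrocyte markers 0 and 2 fell, and of 10 astrocyte markers 1 rose and 2 fell in hippocampus and 2 rose and 2 fell in prefrontal cortex. The part of these cell types in the member values was not tested.

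The libraries that stand apart had a higher level of nearly every member. They were chosen from the data on other genes, so the values describe them and no test is given. Symbols with -ps were not left out of that choice, and such copies can share reads with the members. The summed share was 0.388 ± 0.0301% in the 15 such hippocampal libraries and 0.288 ± 0.0168% in the other 33 (SD). In prefrontal cortex it was 0.373 ± 0.0187% in 14 libraries and 0.260 ± 0.0217% in the other 34. Other sets were higher there too. Symbols with -ps had a mean share of 0.264% against 0.189% in hippocampus and 0.257% against 0.174% in prefrontal cortex. In the same order, mitochondrial ribosomal protein genes had 0.206% against 0.170% and 0.208% against 0.164%. Nuclear genes of oxidative phosphorylation had 0.920% against 0.704% and 0.936% against 0.699%. All 86 members had a higher mean log2 level in the libraries that stand apart in hippocampus and 85 in prefrontal cortex, with medians of 0.36 and 0.44. Over all tested genes the medians were 0.00084 and 0.010, and 50.1% and 51.4% of genes were above 0. Every library that stands apart lay above every other library for 4 members in hippocampus (Rpl4, Rpl27a, Rps3 and Rps3a2) and for 7 in prefrontal cortex, among them Rpl13a, Rpl21, Rps3, Rps24 and Rps25. This was so for 1.96% and 2.33% of all tested genes.

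The size of that difference varied over the family and did so alike in both regions. Rps14 had the largest value in hippocampus, 0.60, with 2363 to 3569 in the libraries that stand apart (median 3065) and 1709 to 2470 in the rest (median 1995). Rpl37a, Rpl41 and Rps25 followed with 0.56, 0.56 and 0.54. In prefrontal cortex the largest values were 0.69 for Rpl35, 0.63 for Rpl41, 0.62 for Rps14, 0.62 for Rplp1 and 0.60 for Rpl14. At the low end in hippocampus were Rpl5, Rpl10a, Rps15a, Rps2 and Rps12 with 0.01, 0.01, 0.05, 0.05 and 0.05. In prefrontal cortex these were Rpl3l, Rps15a, Rps28, Rpl5 and Rps6 with -0.08, 0.01, 0.06, 0.08 and 0.15. The values of the regions had a Spearman rho of 0.88 and a Pearson r of 0.88 over 86 members, which share 14 labels and the same genes. Members with a higher mean signal had larger values (rho 0.42 in hippocampus and 0.40 in prefrontal cortex).

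**Figure D4:**
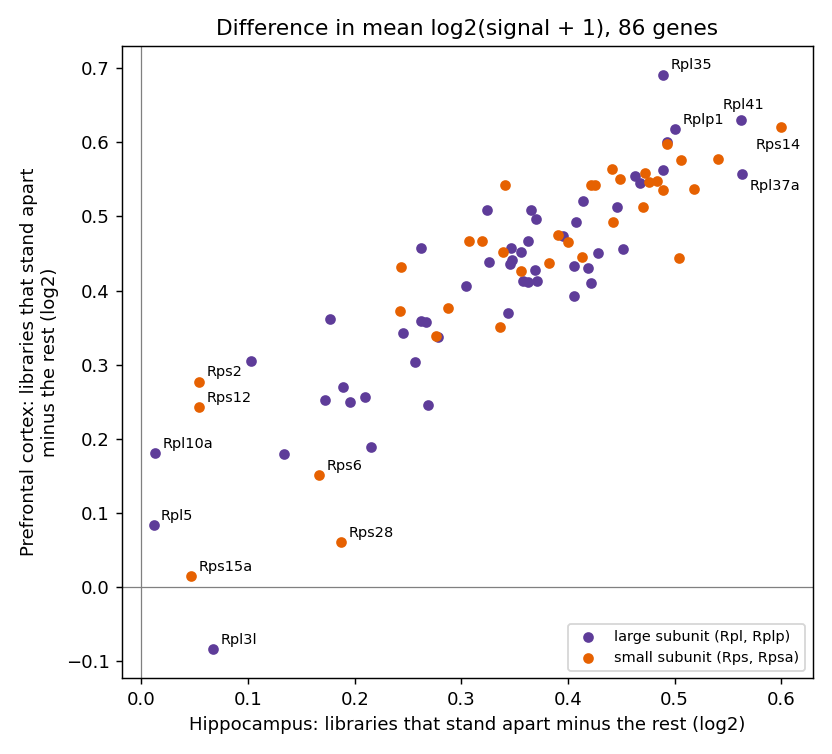
Difference in mean log2(signal + 1) between the libraries that stand apart and the rest for each of 86 ribosomal protein genes, with hippocampus on the x axis and prefrontal cortex on the y axis, coloured by subunit. Most points lie above 0 on both axes, Rps14 reaches 0.60 and 0.62, and Rpl5, Rps15a and Rpl3l lie near 0 in both regions.

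Within groups the members followed each other. The SD of log2 signal within groups had a median over members of 0.227 in hippocampus and 0.246 in prefrontal cortex, against 0.211 and 0.218 over all tested genes. The correlation of a member's deviations from its group means with the mean deviation of the other members had a median of 0.797 in hippocampus and 0.796 in prefrontal cortex over 48 libraries each. It was highest for Rps24 (0.955) in hippocampus and Rps3 (0.966) in prefrontal cortex, and Rps14 was among the first 5 in both. It was lowest for Rpl3l, with 0.073 and -0.032, and low for Rpl5 with 0.108 and 0.109. Without the libraries that stand apart, the median correlation was 0.510 and 0.474, and the median SD 0.172 and 0.172. No such correlation was computed over all tested genes, so whether it is particular to the members was not tested.

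Rps2, a small subunit protein near the messenger RNA entry site, was among the members that varied most within groups. Its SD within groups was 0.493 in hippocampus and 0.616 in prefrontal cortex, while Rps15a had 0.109 and 0.0900. A signal of 1117 to 1956 was found in 7 hippocampal libraries, against at most 917 in the others, and a signal of 1158 to 2152 in 10 prefrontal libraries, against at most 891 in the others. These were 4 PLX and 3 control libraries in hippocampus and 6 and 4 in prefrontal cortex, and only 1 label was among them in both regions. The level of 1000 that separates them was chosen after the values were seen. The genes whose deviations followed Rps2 most closely in both regions, over 48 libraries each, were H2ax, a histone variant (r 0.959 and 0.969), Basp1, a membrane protein of axon terminals (0.947 and 0.963), and Mrps34, a mitochondrial ribosomal protein (0.945 and 0.960). Rps2-ps10, a symbol of an Rps2 pseudogene, had 0.929 and 0.956. Among the other 85 members, Rpl36 (0.718 and 0.837) and Rpl27 (0.546 and 0.613) exceeded 0.5 in both regions, and 2 did so in hippocampus and 18 in prefrontal cortex. Its correlation with the mean deviation of the other members was 0.117 in hippocampus and 0.351 in prefrontal cortex. Without the libraries that stand apart it was 0.306 and 0.478, against member medians of 0.510 and 0.474.

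MIA against saline changed no member past the threshold. Averaged over sex and inhibitor, log2 differences of members ran from -0.10 to 0.10 in hippocampus with a median of -0.01, and from -0.13 to 0.20 in prefrontal cortex with a median of 0.01. The standard error of a member had a median of 0.0635 and 0.0699. By limma 0 members were called, and 0 higher and 1 lower at an unadjusted p under 0.05 in hippocampus and 0 in prefrontal cortex. The member with p under 0.05 was Rpl7a (-0.09, limma adjusted p = 1.00). edgeR and DESeq2 called 0 members in every MIA comparison, and over all genes 0% were called in both averages.

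Strata of MIA against saline likewise gave 0 called members. In hippocampus the member medians were 0.08 in females under PLX, -0.04 in males under PLX, -0.09 in females without inhibitor and -0.0031 in males without inhibitor. In prefrontal cortex they were 0.15, -0.08, -0.01 and -0.01 in the same order. Females under PLX in prefrontal cortex had 76 of 86 values above 0, with 4 higher at an unadjusted p under 0.05. These were led by Rps19, mutated in human Diamond-Blackfan anaemia (0.31, limma adjusted p = 0.757), Rpl35 (0.46) and Rps4l (0.46). The share there was 0.281 ± 0.0552% in MIA females under PLX and 0.245 ± 0.0130% in saline females under PLX (SD, n = 6 each). In MIA females under PLX 1 of 6 libraries stood apart, and in saline females under PLX 0 of 6 did. Counts at an unadjusted p under 0.05 in the other strata were at most 2 higher and at most 5 lower. Over all genes 0.00502% were called in hippocampal females without inhibitor and 0% in the other 7 strata.

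Females and males did not differ past the threshold for any member. The member median of females minus males was -0.04 in hippocampus and -0.05 in prefrontal cortex, and limma called 0 members, with 0 higher and 7 lower in hippocampus and 1 higher and 3 lower in prefrontal cortex at an unadjusted p under 0.05. No member was called by edgeR or DESeq2. Of all genes 0.246% and 0.141% were called. Rps4l had the smallest p in both regions, with a log2 difference of -0.30 in hippocampus (SE 0.0774, limma adjusted p = 0.0952) and -0.35 in prefrontal cortex (SE 0.104, limma adjusted p = 0.341). Rps10 followed in hippocampus with -0.23 (limma adjusted p = 0.118).

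Hippocampus had more of most ribosomal protein messenger RNAs than prefrontal cortex, with and without the term. In 1 fit of all 96 libraries, 56 members were higher in hippocampus and 0 lower, and 83 of 86 log2 values were above 0, with a median of 0.13. Of all genes 35.3% were called higher and 30.6% lower, with a median of 0.02, and the authors may have scaled the libraries within each region. With the term that marks libraries standing apart, 63 members were called higher and 1, Rpl31, lower, against 38.5% of all genes called higher, and all 56 members stayed among them. Rescaling over all 96 libraries gave 52 higher and a median of 0.13.

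The difference was small for most members and about 2-fold for Rps4l. Its signal was 263.7 to 624.1 in hippocampus with a median of 406.1, and 112.4 to 356.9 in prefrontal cortex with a median of 201.7. The ranges overlap, and the log2 difference was 1.00 (SE 0.0660, limma adjusted p = 5.6e-25). The annotation calls Rps4l a transcribed processed pseudogene, and 1.66% of its windows occur in another gene. Rpl22, a large subunit protein that acts in T cell development, ran from 1758 to 2654 in hippocampus with a median of 2070, and from 1512 to 2244 in prefrontal cortex with a median of 1691. Its log2 difference was 0.26 (SE 0.0292, limma adjusted p = 2.79e-13), and its paralog Rpl22l1 had 0.11 (adjusted p = 0.0690). Rpl5 had 0.26 (SE 0.0284, limma adjusted p = 1.87e-13), and its signal was 185.9 to 272.5 in hippocampus (median 237.1) and 148.7 to 235.6 in prefrontal cortex (median 197.7).

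The other called members with the smallest p were Rpl21, Rpl30, Rps7, Rpl10a, Rps27l, Rpl3 and Rpl35a, with log2 differences of 0.20 to 0.29. Rps27l, in human cells a p53-induced paralog of Rps27, had 0.29, while Rps27 had 0.06 (adjusted p = 0.343). Rpl7 had 0.18 (adjusted p = 5.55e-05) and its paralog Rpl7l1 0.04 (adjusted p = 0.187). Rps4x had 0.16 (limma adjusted p = 0.00577). Several members with large differences between libraries had none here that passed the test, such as Rpl41 with 0.0040 (SE 0.0571), Rps14 with 0.04 and Rpl35 with 0.10, which are among the 30 members not called. The values below 0 belonged to Rpl31 (-0.09), Rpl29 (-0.04) and Rpl28 (-0.01), none called in the fit without the term.

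**Figure D5:**
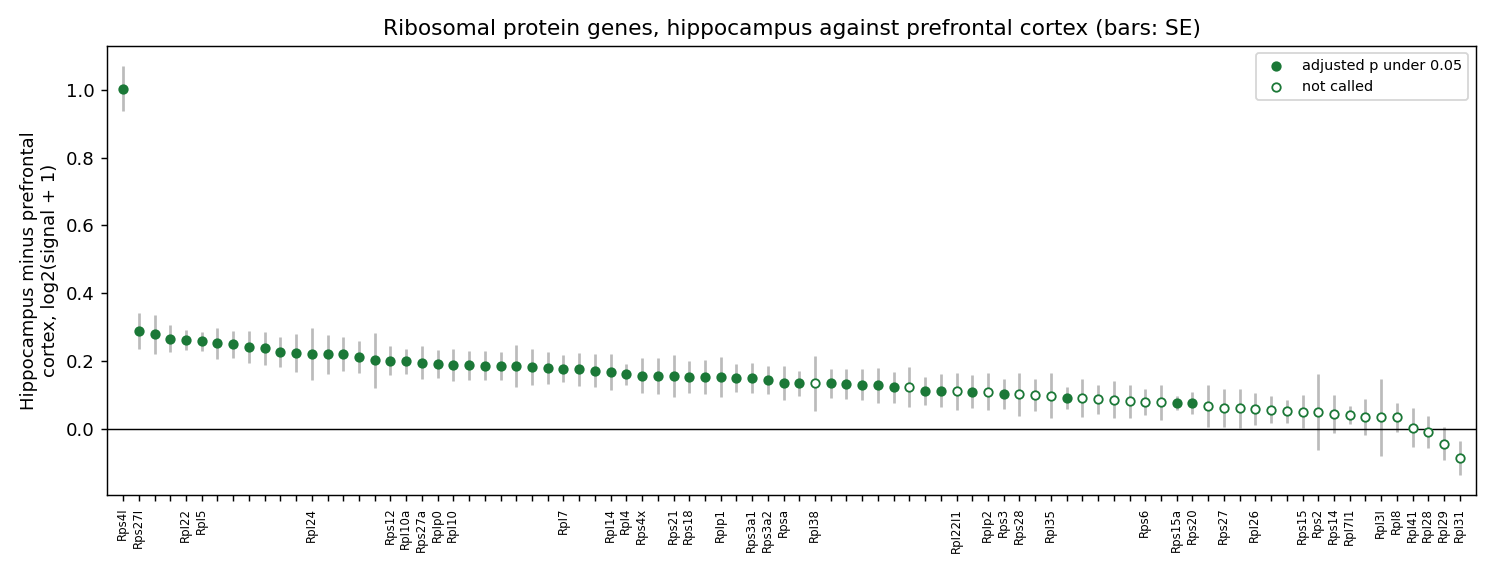
Hippocampus minus prefrontal cortex in log2(signal + 1) for each ribosomal protein gene in 1 fit of 96 libraries, ordered by value, with bars for the SE and filled points where the adjusted p is under 0.05. Some of the members are labelled. Rps4l lies at 1.00, the other called members lie between 0.08 (Rps20) and 0.29 (Rps27l), and the lowest point is Rpl31 at -0.09.

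Cell type markers differed between the regions as well. Of 10 oligodendrocyte markers 10 were higher in hippocampus, of 10 astrocyte markers 8 were higher and 1 lower, of 13 neuronal markers 2 were higher and 10 lower, of 16 microglial markers 1 was higher and 4 lower, and of 10 choroid plexus markers 9 were higher and 1 lower. The choroid plexus list summed to 40.6 to 4310 CPM in hippocampus and 8.72 to 23.2 CPM in prefrontal cortex. The oligodendrocyte list summed to 2874 to 5627 CPM in hippocampus and 2416 to 4231 CPM in prefrontal cortex. Their part in the regional difference of the members was not tested. These counts too stand beside 35.3% of all genes higher and 30.6% lower. Of 77 mitochondrial ribosomal protein genes 22 were higher in hippocampus and 11 lower, of 10 snoRNA host genes 9 were higher and 0 lower, and of 21 other messenger RNAs with the tract 12 were higher and 2 lower.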

How the data were processed

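Total RNA was made into stranded messenger RNA libraries and sequenced, per the labels' protocols. Trimmomatic, STAR 2.6.1d and the build GRCm39 (mm39) are named in the submitters' processing notes, and no source used here names the counter. The deposited values are a signal per gene, whole read counts over a library's own factor (0.898 to 1.11). The authors may have scaled each region separately. Whole reads were recovered from the steps of the values (tolerance 0.01), with 100% of values whole, for use in alternatives. On them edgeR called 3894 genes higher and 3997 lower for PLX in hippocampus, and 3642 and 3783 in prefrontal cortex.

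Groups came from the sample titles. limma 3.58.1 in R 4.3.3 was fitted to log2(signal + 1) for genes that reached a signal of 10 in 5 or more libraries (19938 in hippocampus, 19841 in prefrontal cortex, 20620 over both). All 86 members passed. The fit had a mean-variance trend and 1 mean per group, with Benjamini-Hochberg adjustment over all tested genes and a threshold of 0.05, and log2 differences understate the change of low genes. Because the unit is a signal, edgeR 4.0.16 and DESeq2 1.42.0 on the recovered reads served as alternatives, and the steps were tested on simulated data.

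The libraries that stand apart were split by 2 clusters on the first principal component of genes outside the member, translation and respiration lists. Values were centred within sex, and symbols with -ps were not left out. Exonic windows of each member were matched to GENCODE M21 on GRCm38, and promoters came from RefSeq on GRCm38.p6. Those builds differ from that of the files, so names alone linked them. Named genes were up to 10 called members with the smallest p per comparison, or 3 where none was called, fixed paralog pairs and stalk proteins, and the 5 highest and 5 lowest members by spread within groups, by correlation with the others and by the difference of the libraries that stand apart. Values of some members that this rule names are not reported here. Others, such as those of highest level, were chosen after their values were seen. The members and gene lists were chosen with earlier results of these data known.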

Additional observations from a re-analysis of the deposited data

Results flagged for a closer look

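In 4 of the 16 groups, the summed share of ribosomal protein signal had a single library far above the others, by its gap to the nearest library over the range of the group. In hippocampus, MIA PLX female 06 had 0.386%, with the next of 6 libraries at 0.296%, and saline PLX male 05 had 0.367%, with the next at 0.294%. In prefrontal cortex, MIA PLX female 06 had 0.388%, with the next at 0.292%, and saline PLX male 05 had 0.343%, with the next at 0.272%. Chance gives such a gap in about 1 of 20 groups. These are the same 2 labels in both regions, and they are the PLX libraries that stand apart on other genes.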

How the results depend on the processing

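The PLX calls of the averages changed with the handling of the libraries that stand apart. Most of these are control libraries, and the component that marks them was centred within sex only. Their part and that of the inhibitor thus cannot be told apart. With a term for these libraries or without them, 0 members were called in hippocampus (59 otherwise) and 0 in prefrontal cortex (65 otherwise). A further setting, chosen after the data were seen, left out only the labels apart in both regions and also gave 0 in hippocampus. Rpl13a in hippocampus had -0.15 in the reported fit, against 0.027 with the term, 0.045 without the libraries and 0.048 without the labels apart in both regions. Rpl7l1 in prefrontal cortex had -0.11 in the reported fit and 0.019 without the libraries. The cause was not tested.

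DESeq2 called 1 member in hippocampal saline females and 13 in prefrontal saline males, where limma called 0. Leaving out each library in turn gave 51 to 63 calls for PLX in hippocampus, 63 to 68 in prefrontal cortex, 0 to 36 in hippocampal MIA males, 0 to 35 in prefrontal MIA males, 0 to 36 in prefrontal saline males and 0 to 2 between the sexes in hippocampus. Between regions each of 7 replicate numbers was left out from all groups at once, which gave 48 to 58 calls. The share of all genes called in these fits is not given. With another pseudocount, no filter, another scaling, edgeR and DESeq2, 57 to 61 members were called lower under PLX in hippocampus, 65 to 66 in prefrontal cortex, and 52 to 57 higher between regions, with none called the other way.

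Same-numbered libraries of the compared groups were not paired by the labels. For libraries with the same label in both regions, deviations correlated by -0.10 to 0.69 with a median of 0.24, and 20 of 48 matched their own label best. With the replicate number as a block, 58 members were called lower under PLX in hippocampus and 65 in prefrontal cortex. With the label shared by the regions as a block, 63 were higher and 1, Rpl31, lower between regions. Depth limits Rpl3l most, whose signal fell to 0.964 in its lowest library.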
